A study of Drosophila melanogaster with 3 samples.

Results

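Hsc70-3, Gp93, Calr, Cnx99A and Cnx14D encode the general and the glycoprotein-binding chaperones of the Drosophila melanogaster endoplasmic reticulum (ER), and their Xbp1-GFP ChIP-seq peaks are described here. They were taken by name from the dm6 annotation and make up 5 of the 13945 protein-coding genes on the chromosome arms that carried peaks. A peak was assigned to a gene when its summit, the base of highest signal, lay in the gene or within 2 kb of it. By that rule 13 of the 7291 peaks that passed the authors' threshold on irreproducible discovery rate (IDR) belonged to these genes. The data came from 3 biological replicates of a single group, with no second condition. Each replicate was whole embryos of mixed sex, aged 0 to 24 h, from 1 transgenic line whose Xbp1 carried green fluorescent protein (GFP) at its C terminus. Chromatin was sonicated to fragments of 200 to 800 bp, and the antibody recognised GFP, so the values describe the tagged protein. Cells of different types were pooled, and binding in few cells cannot be told apart from weak binding in many. The sources used here do not say what drives the transgene or whether untagged Xbp1 was present.

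Xbp1 is a bZIP transcription factor of the unfolded protein response. When unfolded proteins build up in the ER, the sensor Ire1 starts the splicing of Xbp1 mRNA, and the spliced form encodes the active factor, which in animals is known for binding genes of ER folding and secretion. Hsc70-3 is the fly BiP, the HSP70 of the ER, which holds unfolded chains in an ATP-driven cycle and also binds the stress sensors. Gp93 is the fly GRP94, the HSP90 of the ER. Calr is calreticulin, a soluble lectin that holds newly made glycoproteins by their trimmed sugar chains, and Cnx99A and Cnx14D encode calnexins, the membrane-bound counterparts.

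The sequences at the strongest summits are shown first, because the letters under them differed between the genes. Each is read 5′ to 3′ on the strand of its gene from the RefSeq Release 6 genome, in dm6 coordinates. Capitals mark GACGTG, the core of the mammalian unfolded protein response element, which reads CACGTC where it lies on the other strand. The 4 windows of Hsc70-3, each reaching 50 bp to either side of a summit, all held it.
Hsc70-3 peak 1, chrX:11807387-11807487, minus strand: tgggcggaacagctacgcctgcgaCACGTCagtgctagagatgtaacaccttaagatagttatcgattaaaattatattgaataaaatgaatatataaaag
Hsc70-3 peak 2, chrX:11807144-11807244, minus strand: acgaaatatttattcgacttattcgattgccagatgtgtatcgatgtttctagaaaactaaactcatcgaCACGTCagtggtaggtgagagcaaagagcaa
Hsc70-3 peak 3, chrX:11806395-11806495, minus strand: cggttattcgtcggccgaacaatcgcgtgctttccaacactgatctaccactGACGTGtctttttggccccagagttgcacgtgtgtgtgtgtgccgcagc
Hsc70-3 peak 4, chrX:11805614-11805714, minus strand: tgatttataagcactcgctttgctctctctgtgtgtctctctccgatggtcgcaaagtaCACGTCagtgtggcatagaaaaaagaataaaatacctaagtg

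At Gp93 the strongest summit lay in the 5′ UTR, of which 30 bases around the element are shown, and here the letters on either side of the capitals complete TGACGTGG. At Cnx99A a weak intronic summit had the element.
Gp93 peak 1, chr3R:27948788-27948817, plus strand: tctgttattcgtGACGTGgcctttcgccgg
Cnx99A peak 3, chr3R:29319078-29319178, minus strand: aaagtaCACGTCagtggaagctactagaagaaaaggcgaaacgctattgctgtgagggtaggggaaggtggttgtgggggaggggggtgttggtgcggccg

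The strongest windows of Calr and Cnx99A are given for contrast, since neither held GACGTG. In the Calr window capitals mark CCAAT, or ATTGG where it lies on the other strand. For Cnx14D, which had no peak, the 100 bases before its start site are shown.
Calr peak 1, chr3R:9630934-9631034, minus strand: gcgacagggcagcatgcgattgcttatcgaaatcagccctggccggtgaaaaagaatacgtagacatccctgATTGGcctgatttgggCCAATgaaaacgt
Cnx99A peak 2, chr3R:29319658-29319758, minus strand: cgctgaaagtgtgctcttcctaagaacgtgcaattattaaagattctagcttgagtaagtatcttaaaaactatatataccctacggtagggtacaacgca
Cnx14D, chrX:16525416-16525515, minus strand: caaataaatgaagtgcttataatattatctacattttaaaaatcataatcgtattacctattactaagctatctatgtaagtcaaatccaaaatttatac

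Signal is the authors' value for each peak, on a scale that is not stated and that differs between lists, so it is compared only within a list. The replicate lists held 21686, 30000 and 23357 peaks for replicates 1, 2 and 3, and the median signal was 48.9, 32.7 and 26.2. The round length of the list of replicate 2 may be a cap, in which case weaker peaks are missing from it and its length does not measure how much was bound. In the thresholded list the median signal was 319 and the highest 11414. For ranks in replicates, a thresholded peak took the strongest overlapping replicate peak, and 6966 of the 7291 thresholded peaks had such a peak in all 3 lists. Thresholded summits in a shared span took the same replicate peak, which was then counted once for each of them. Read totals were not analysed here, so depth is unknown, and the control sample was not analysed here.

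Of the 5 genes, 4 had a thresholded summit in the gene or within 2 kb, where 48.2% of all protein-coding genes did. The same 4 had a promoter peak, meaning a summit no more than 500 bp from one of its start sites, where 30.4% of all protein-coding genes had one. Cnx14D was the exception. Ranked by strongest promoter signal among the 4242 genes with a promoter peak, Calr was number 4, Hsc70-3 number 19, Gp93 number 127 and Cnx99A number 1065. The 4 bound genes therefore spanned a wide range, with Calr and Hsc70-3 near the top of the list and Cnx99A within its upper part.

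**Figure D1:**
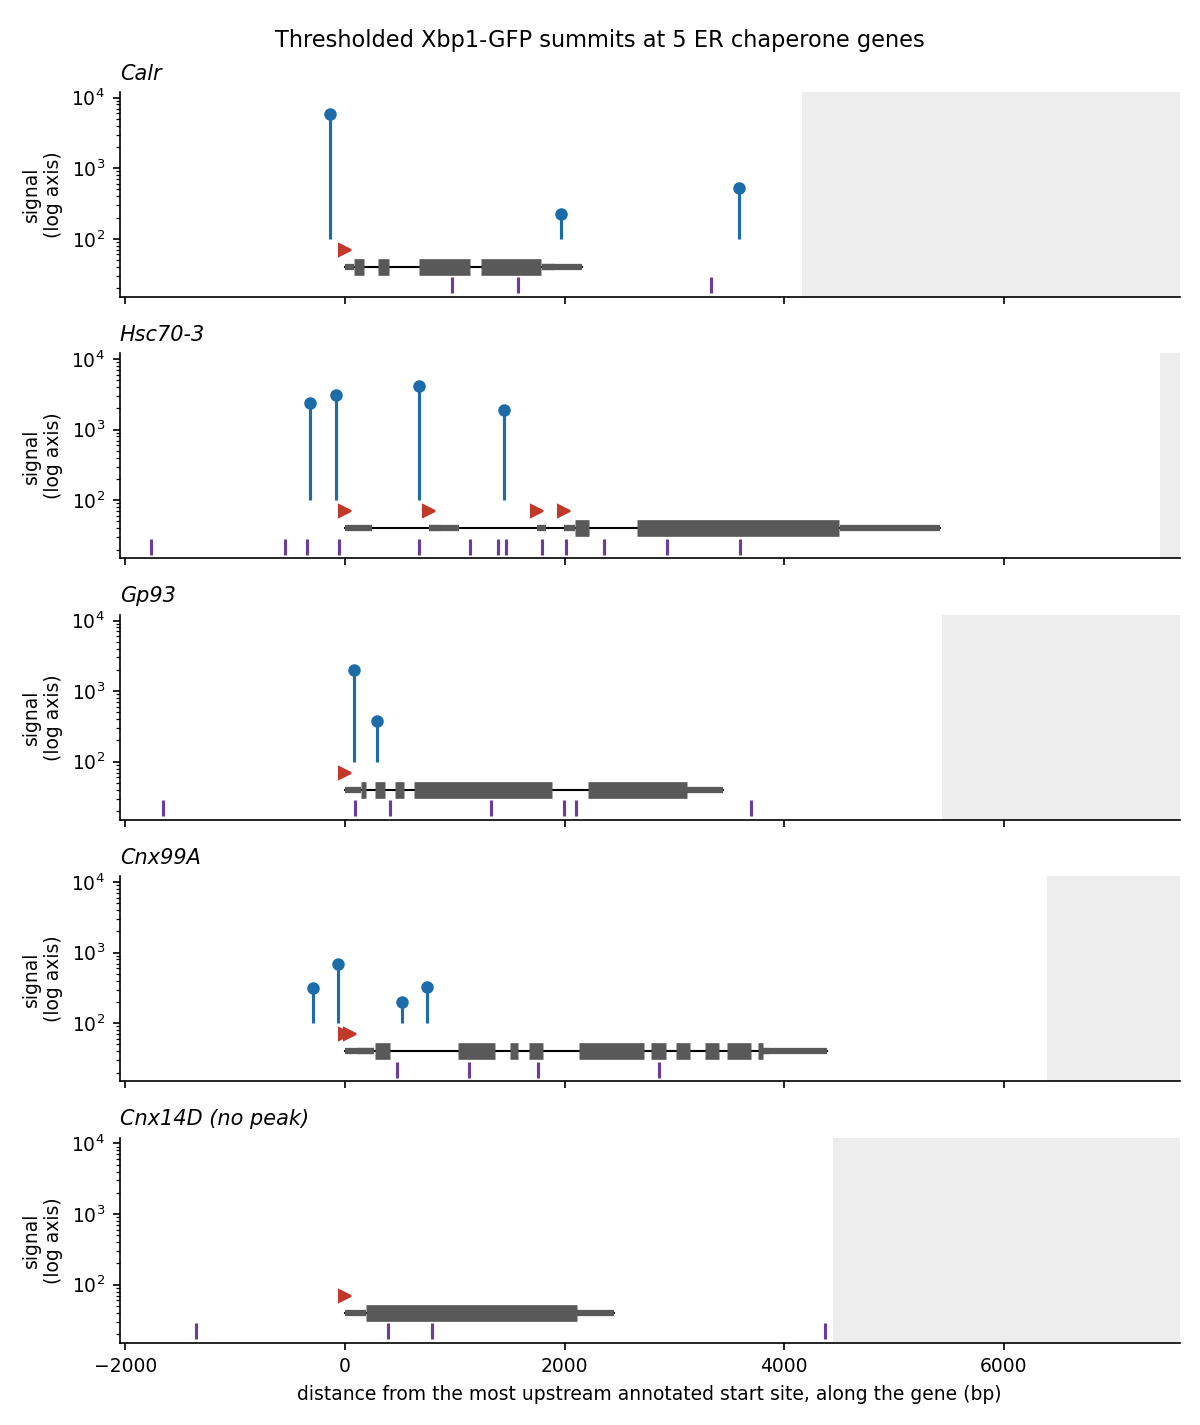
Thresholded summits at the 5 genes, each panel drawn along the gene from its most upstream start site (distance in bp), with signal on a log axis as blue stems, start sites as red arrowheads, exons as grey boxes (coding parts taller), GACGTG as purple ticks and the region beyond 2 kb of the gene shaded. Hsc70-3 had 4 summits with signals from 1910 to 4194, Calr 1 summit of 5825 and a pair of much lower ones, and Cnx14D none.

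Hsc70-3 (FBgn0001218, chrX:11801696-11807117, minus strand), the BiP gene, had 4 thresholded summits, all of them within 500 bp of 1 of its 4 annotated start sites. Peak 1 and peak 2 shared a span of 870 bp, chrX:11806943-11807812, upstream of the most distal start. The summit of peak 1 was 320 bp and that of peak 2 was 77 bp before that start, and their signals were 2398 and 3132. Peak 3 (chrX:11806198-11806641) had its summit in an annotated intron, 92 bp before the second start, and was the strongest, with a signal of 4194. Peak 4 (chrX:11805388-11805885) was also intronic, 300 bp before the third start, with a signal of 1910. Within the thresholded list the 4 ranked 77, 41, 19 and 132, so that each lay among the strongest 132 of 7291. The strongest had 13.1 times the list median.

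A cluster of 4 or more thresholded summits in the gene or within 2 kb was found in 0.692% of the 10692 genes no longer than Hsc70-3, the longest of the 5 at 5422 bp. Hsc70-3 and Cnx99A each had such a cluster. This restriction by length was chosen after seeing the data. Without it, 511 of all 13945 genes had 4 or more.

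The 4 Hsc70-3 summits were found in every replicate list. Peak 3 had signals of 1235, 2291 and 696 in replicates 1, 2 and 3, and was the strongest of the 4 in each. Peak 2 had signals of 892, 1694 and 566 and came next in each replicate. Peak 1 had signals of 700, 1374 and 341, and peak 4 had 481, 1089 and 346. These weaker 2 changed places, peak 4 being above peak 1 in replicate 3 alone, by a small margin. As shares of the summed signal of the 4, peak 3 held 36.2% ± 0.994, peak 2 held 27.4% ± 1.44, peak 1 held 20.0% ± 2.16 and peak 4 held 16.4% ± 1.67 (SD, n = 3 replicates). The split was thus close to constant across replicates that differed in scale, and the gap between peak 3 and peak 2 was larger than their spread, while peak 1 and peak 4 overlapped.

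**Figure D2:**
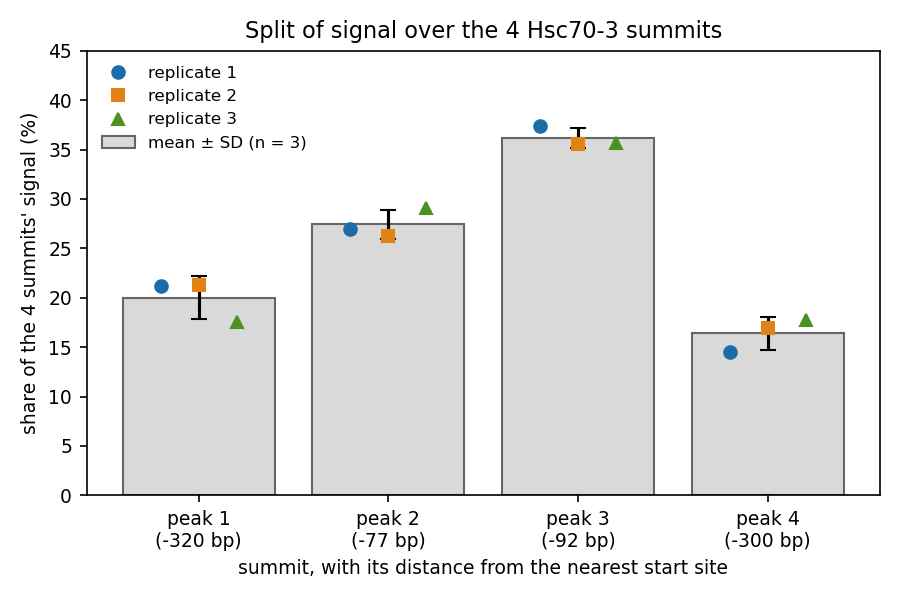
Share (%) of the summed Hsc70-3 signal at each of its 4 summits, with bars for the mean, error bars for the SD over 3 replicates and points for the replicates. Peak 3 held 36.2% and was the highest in each replicate, and peak 1 (20.0%) and peak 4 (16.4%) overlapped.

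The positions were as steady as the shares. The summit of peak 3 lay at -90, -84 and -92 bp from its start in replicates 1, 2 and 3, where negative values are before the start, a mean of -88.7 ± 4.16 bp (SD, n = 3). Replicate summits moved by at most 12 bp from the thresholded one at peak 2, 8 bp at peak 3 and 6 bp at peak 4. Peak 1 moved most, by up to 40 bp.

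Gp93 (FBgn0039562, chr3R:27948711-27952151, plus strand), the GRP94 gene, had 1 annotated start site and 2 thresholded summits in a shared span of 813 bp, chr3R:27948461-27949273. The stronger, peak 1, lay in the 5′ UTR 79 bp after the start, with a signal of 1994, rank 126 and 6.25 times the list median. Its replicate signals were 498, 1230 and 268, at ranks 470, 22 and 490 of the whole replicate lists. It was therefore far higher in the list of replicate 2 than in the others. The weaker, peak 2, lay in a coding exon 288 bp after the start, with a signal of 384 and rank 2908. Its matched summits in replicates 1, 2 and 3 were 374, 283 and 380 bp after the start. That exon ends 362 bp after the start, so the position of peak 2 was less steady than that of peak 1. Peak 1 held 81.8%, 83.8% and 73.5% of the summed signal of the 2 summits in replicates 1, 2 and 3, a mean of 79.7% ± 5.47 (SD, n = 3). Its summit was 79, 79 and 97 bp after the start. No other gene started within 500 bp of either summit, and the nearest other start, that of the mitochondrial iron carrier gene mfrn, was 769 bp from peak 1.

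Calr (FBgn0005585, chr3R:9628691-9630851, minus strand), the calreticulin gene, had the strongest peak of the 5 genes. Peak 1 (chr3R:9630621-9631298) had its summit 133 bp before the gene's start, with a signal of 5825, which was rank 5 of 7291 and 18.2 times the list median. Its replicate signals were 1683, 3104 and 1065, at ranks 19, 2 and 18 of the whole replicate lists, so it was among the strongest 19 peaks in each. The summit lay at -138, -132 and -141 bp from the start in replicates 1, 2 and 3, a mean of -137 ± 4.58 bp (SD, n = 3). The nearest other start, that of the spermidine synthase gene SpdS, was 657 bp away.

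The other Calr summits were much lower than peak 1 and lay at the far end of the gene or beyond it. Peak 2 lay in the 3′ UTR, 1963 bp from the start, with a signal of 222 and rank 5606. Its replicate signals were 67.2, 98.0 and 33.1, and in replicate 3 its −log10 of the q-value was 1.08, which is a q-value above 0.05. Peak 3 lay downstream of the gene with a signal of 531 and rank 1831, and its summit was 62 bp from the start of CG8319 and within 500 bp of that of CG9427, so it counted as a promoter peak of those genes and not of Calr. Peak 1 held 85.2%, 90.9% and 89.3% of the summed signal of the 3 summits in replicates 1, 2 and 3, a mean of 88.5% ± 2.93 (SD, n = 3).

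Cnx99A (FBgn0015622, chr3R:29315254-29319644, minus strand), 1 of the calnexin genes, had 4 thresholded summits like Hsc70-3, but all were weaker than those of that gene. The strongest, peak 2 (chr3R:29319555-29319873), lay 64 bp before a start site with a signal of 698, rank 1182 and 2.19 times the list median. Its replicate signals were 311, 186 and 201, at ranks 1185, 1661 and 852 of the whole lists. Unlike the peaks of Calr, Hsc70-3 and Gp93 its rank was lowest in replicate 2. Its summit lay at -66, -60 and -52 bp from the start, a mean of -59.3 ± 7.02 bp (SD, n = 3).

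Of the other Cnx99A summits, peak 1 lay 294 bp before a start with a signal of 311, just under the list median, and replicate signals of 127, 78.2 and 97.5. Peak 3, the intronic summit with GACGTG, lay 470 bp after a start, and its signal of 202 at rank 6179 was near the lowest of the thresholded list, 172. Its replicate signals were 72.2, 117 and 33.1, and its −log10 q of 1.09 in replicate 3 was again a q-value above 0.05. Peak 4, also intronic, was 701 bp after a start with a signal of 330. It had no summit within 200 bp in replicate 2, against signals of 172 and 97.2 in replicates 1 and 3. Peak 2 held 45.6% and 46.9% of the summed signal of the 4 Cnx99A summits in replicates 1 and 3, and 48.8% of that of the 3 summits matched in replicate 2, so the gene's signal was spread over several summits.

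Cnx14D (FBgn0264077, chrX:16522967-16525415, minus strand), the other calnexin gene, is a single-exon gene that lies inside the sodium channel gene para. It had no summit in the gene or within 2 kb in the thresholded, the pooled or any of the 3 replicate lists. The nearest summit of the thresholded list was 27327 bp away, that of the pooled list 9476 bp, and those of replicates 1, 2 and 3 were 9391, 9498 and 3693 bp away. The replicate and pooled lists also hold background regions, so peaks far weaker than those of the thresholded list were not listed here either, within the lowest signal each list holds. The pooled list held 10 summits at Hsc70-3, 5 at Gp93, 4 at Calr and 5 at Cnx99A by the same rule.

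Within each replicate the strongest summits had the same order, Calr above Hsc70-3 above Gp93 above Cnx99A. The signal of Calr was 1.36, 1.35 and 1.53 times that of Hsc70-3 in replicates 1, 2 and 3, a mean of 1.42 ± 0.0989 (SD, n = 3). Hsc70-3 was 2.48, 1.86 and 2.59 times Gp93, a mean of 2.31 ± 0.394. Both steps were larger than the spread between replicates. The step to Cnx99A was uneven, since Gp93 was 1.60, 6.61 and 1.33 times Cnx99A, and its mean of 3.18 ± 2.97 rests on replicate 2.

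On the ranks among the 6966 shared peaks, Calr was number 19, 2 and 18 in replicates 1, 2 and 3, and Hsc70-3 number 64, 3 and 64. Gp93 was number 499, 22 and 520, and Cnx99A number 1257, 1735 and 902. A replicate peak matched to several thresholded summits was counted once for each. These rank numbers can therefore exceed those in the whole replicate lists, as for Gp93 in replicate 1, with 499 against 470. The ranks were also expressed as the share of the 6966 thresholded peaks with a higher matched signal, such repeats included. The mean was 0.172% ± 0.137 for Calr, 0.612% ± 0.506 for Hsc70-3, 4.97% ± 4.04 for Gp93 and 18.6% ± 6.0 for Cnx99A (SD, n = 3). Replicates 1 and 3 gave nearly the same ranks for Calr, Hsc70-3 and Gp93. Each of these ranked higher in replicate 2 than in either other replicate, as did 33.6% of the 6966 shared peaks, and Cnx99A ranked lower in replicate 2 than in either other, as did 44%. Whether the difference of replicate 2 came from the embryos or the library was not tested.

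**Figure D3:**
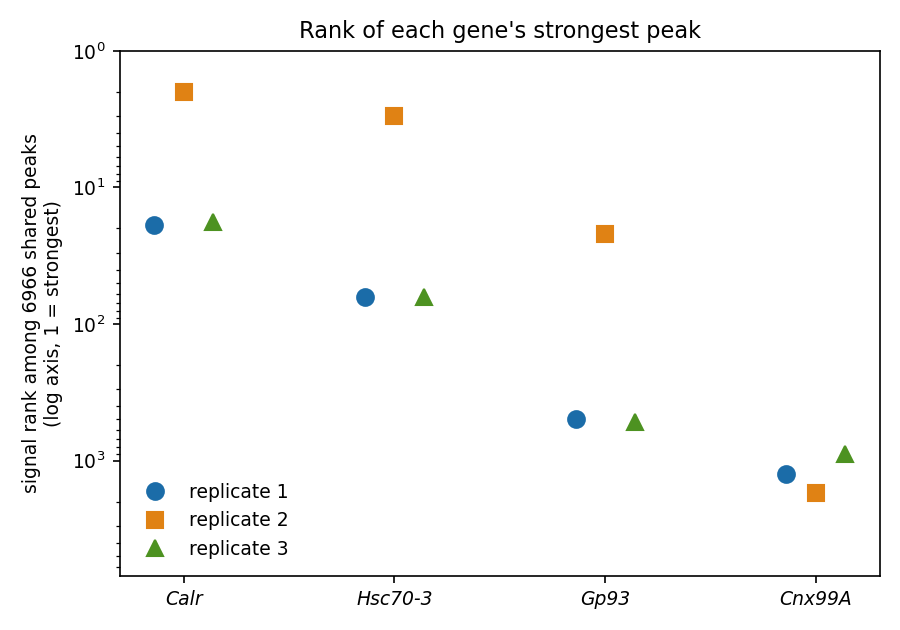
Rank by signal (log axis, 1 is the strongest) of each gene's strongest peak among the 6966 thresholded peaks with a counterpart in each of the 3 replicates, with 1 marker for each replicate. Replicates 1 and 3 nearly coincide for Calr, Hsc70-3 and Gp93, whose ranks in replicate 2 were 2, 3 and 22, and Cnx99A lay between ranks 902 and 1735.

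Within 50 bp of the summit, GACGTG was found at 6 of the 13 summits of these genes, where 2.39% of all thresholded summits held it. They were the 4 of Hsc70-3, peak 1 of Gp93 and peak 3 of Cnx99A. The base of the element nearest to the summit lay 21, 20, 2 and 9 bp away at peaks 1 to 4 of Hsc70-3, 10 bp away at Gp93 and 39 bp away at Cnx99A. Over the 174 thresholded windows with the element, the median distance was 20 bp. The full element TGACGTGG was found at 1 of the 13 summits, that of Gp93, and at 0.549% of all, and TGACGTGA at 0 of the 13 and 0.0549% of all. Summits of 1 gene share their neighbourhood and are not independent of each other.

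The stress elements ERSE-I (CCAAT, 9 bases of any kind, then CCACG) and ERSE-II (ATTGG, 1 base of any kind, then CCACG) were at none of the 13 summits, and at 1 and 0 of the 7291. The part CCACG was at 2 of the 13 and 6.27% of all, CCAAT at 3 of the 13 and 17.9% of all, and the E-box CACGTG at 2 of the 13 and 0.905% of all. The cyclic AMP element TGACGTCA and the element TATCGATA were at 0 of the 13, and at 0.178% and 2.70% of all. All searches covered both strands, and GACGTG is contained in TGACGTGG and TGACGTGA. A match describes the letters only, and the lack of one says only that these letters are not in the window.

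The 4 windows of Hsc70-3 had 11 bases in common, CACTGACGTGT on one strand or the other, which is their longest shared stretch and was found after seeing the data. It lay on the gene's strand at peak 3 and on the opposite strand at peaks 1, 2 and 4. Of all thresholded summits 0.137% held it within 50 bp, and Cnx99A peak 3 was among them. On the chromosome arms the stretch occurred at 39 places, of which 11 lay in a thresholded peak. The places near these genes numbered 6, with 5 at Hsc70-3 and 1 at Cnx99A, and 6 of these 6 lay in a thresholded peak. For 4 of them this was fixed in advance, since the stretch was taken from the 4 Hsc70-3 windows. The remaining place at Hsc70-3 was in the span of peaks 1 and 2, 220 bp from a summit. Of the 33 places elsewhere, 5 lay in a thresholded peak. The genes with the start nearest to those 5, named after their values were seen, were Herp, whose mammalian counterpart acts in ER-associated degradation, the ER protein gene wbl, the Golgi protein gene lva, and Wbp2 and CG13585. Their signals were 200, 272, 523, 213 and 260, all below each of the Hsc70-3 summits.

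Over each gene and 2 kb to either side, GACGTG occurred 13 times at Hsc70-3, 7 at Gp93, 3 at Calr, 4 at Cnx99A and 4 at Cnx14D. Per kb this was 1.38, 0.941, 0.487, 0.477 and 0.620, where the chromosome arms as a whole had 0.213. The arms include sequence far from genes, and no value for the same regions around other genes is given. Whether these densities differ from those at other genes was therefore not tested. Of the copies, 6 at Hsc70-3, 2 at Gp93, 0 at Calr, 1 at Cnx99A and 0 at Cnx14D lay in a thresholded peak. Calr, with the highest signal, thus had no copy in any of its peaks, and its copy closest to the start was 978 bp away. Cnx14D had a copy 391 bp after its start, in the coding exon, and no peak. The share of all copies on the arms that lay in a thresholded peak is not given. The shared spans of 870 bp at Hsc70-3 and 813 bp at Gp93 were also wider than the list median of 404 bp. Whether more copies lay in peaks here than elsewhere was therefore not tested. In promoter sequences, cut as 250 bases before to 50 after the most upstream start, GACGTG was present at Hsc70-3 alone among the 5, and at 5.82% of all 13945 genes. CCAAT was present 3 times at Calr, 2 at Cnx14D and 1 at Gp93, and at 46.7% of all.

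Listed partners and relatives of the chaperones were set beside them by their promoter peaks, with intervals that are exact (Clopper-Pearson, 95%) and cover counting error only. They treat the listed genes as independent draws, although the lists were chosen with earlier results of these data known. The intervals are therefore no test against the shares over all genes. Of 10 cofactors of BiP and GRP94, 7 had a promoter peak (70%, interval 34.8 to 93.3%) and 10 had a summit in the gene or within 2 kb, where the shares over all genes were 30.4% and 48.2%. The strongest were the DnaJ-type co-chaperones shv, with a signal of 1894, and P58IPK, with 1821. They were followed by Grp170, a large HSP70 relative that exchanges nucleotide on BiP, with 1361, and CG11999, with 1061. The median over the 7 was 1061, where that over the 4242 genes with a promoter peak was 403. CG7872, Sil1 and l(3)80Fg had summits only outside the promoter. The ranks of 7 of the 7 were higher in replicate 2 than in either other, as for Hsc70-3 and Gp93 and 33.6% of all shared peaks. The shv peak is shared with the scavenger receptor gene crq.

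Of 7 genes of the calnexin and calreticulin cycle, 6 had a promoter peak (85.7%, interval 42.1 to 99.6%) and 7 had a summit in the gene or within 2 kb, where 30.4% and 48.2% of all genes did. ERp60, a disulfide isomerase whose mammalian counterpart works with both lectins, had a signal of 1765, and GCS2beta, a subunit of the glucosidase that trims the sugar chain, had 1700, in a peak it shares with CG5131. Edem2, of the family that marks misfolded glycoproteins for degradation, had 720, and Uggt, which puts the glucose back on unfolded glycoproteins, had 368, below the median of 403. Their peaks also lay at the starts of CG16974 and Rad9. GCS1 had no promoter peak. These genes ranked higher in replicate 2 than in either other in 3 cases of 6, and lower in 2, where 33.6% and 44% of all shared peaks did.

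Of 14 HSP70 and HSP90 relatives outside the ER, 5 had a promoter peak (35.7%, interval 12.8 to 64.9%), near the 30.4% of all genes. The strongest were the mitochondrial Hsc70-5, with a signal of 1109, and the cytosolic Hsc70-4, with 893, and Hsp83, with 796. The peaks of Hsc70-5 and Hsc70-4 also lay at the starts of CG8531 and tefu. Some genes counted but not named here, in each of the 3 lists, likewise had a peak shared with another gene. The relatives without a promoter peak were Hsc70-1, Hsc70-2, Hsp68 and the 6 Hsp70A and Hsp70B copies. The copies are nearly identical, and the sources used here do not say how reads that map to several places were treated. The count was 3 of 14 when only peaks above the median signal were used. It was also 3 when thresholded peaks had to overlap the strongest 7291 peaks of every replicate but 1, whichever replicate was left out. With peaks above the median signal, the cofactors numbered 6 of 10 and the genes of the calnexin and calreticulin cycle 4 of 7. Both filters are stricter than the full thresholded list. The share over all genes is not given for them, and the 30.4% does not apply to them. All 3 lists were chosen with earlier results of these data known. CG1924, listed as a possible further calnexin gene, had no peak and is annotated in RefSeq only as an uncharacterized protein.

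**Figure D4:**
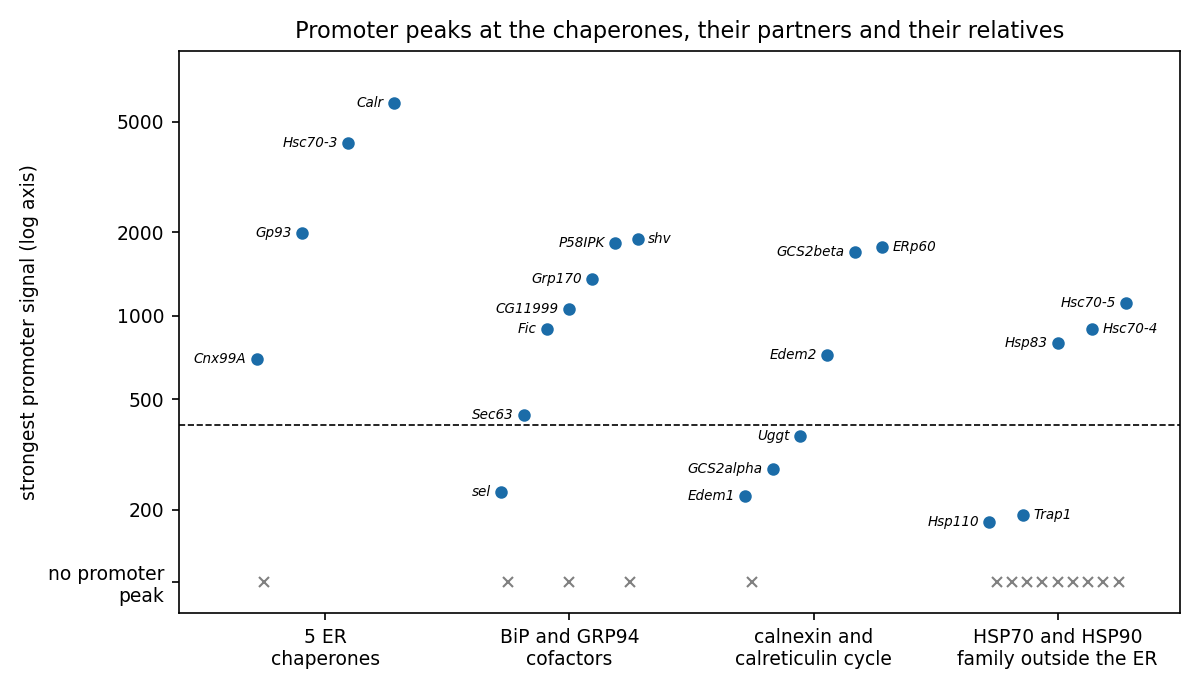
Strongest promoter signal in the thresholded list (log axis) of the 5 ER chaperone genes, of 10 cofactors of BiP and GRP94, of 7 genes of the calnexin and calreticulin cycle and of 14 HSP70 and HSP90 relatives outside the ER, with crosses for genes with no promoter peak and a dashed line at the median of all genes with a promoter peak, 403. Calr at 5825, Hsc70-3 at 4194 and, by a small margin, Gp93 at 1994 lay above every listed partner and relative. The highest of those was shv at 1894, and Cnx99A at 698 lay within their range.

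The genes most like each chaperone were found by the sum over the 3 replicates of rank differences of the strongest promoter peak, among 4091 genes. For Calr they were Herp and the small RNA loading factor gene r2d2, which share 1 peak at ranks 24, 4 and 19, a summed difference of 8. That promoter peak of Herp had a signal of 4775 and is another than the weak one named above. For Hsc70-3 they were the casein kinase gene gish, with ranks 57, 34 and 59 and a summed difference of 43, and the phosphoesterase gene Mppe, with ranks 53, 37 and 48 and 61. For Gp93 they were crq and shv, which share 1 peak at ranks 533, 28 and 510, a summed difference of 50. For Cnx99A they were the ankyrin gene Ank2 and Ras85D, with summed differences of 136 and 173. The likeness describes ranks in these 3 lists only.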

How the data were processed

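Peak lists of Xbp1-GFP ChIP-seq from 3 biological replicates were used in the dm6 build, with 1 list per replicate, 1 called on the pooled replicates and 1 thresholded by IDR, per the deposited text lists. Per the same source, peaks were called against a control, which was not analysed here. The aligner and peak caller were not given in the sources used here. Lists in the dm3 build were not used. Each peak had a signal value and a −log10 of the q-value, both deposited by the authors. The lists give no read totals, so the precision that depth allows is unknown. Top q-values are tied (7111 of the 7291 thresholded peaks share 4.15), so peaks were ranked by signal.

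Genes came from Ensembl release 115 (BDGP6.54) and sequence from the RefSeq Release 6 genome, and positions count from 1. The minimum overlap between lists was 1 bp, and single summits were matched to replicate summits within 200 bp. Motifs were searched on both strands of 101 bp windows. Of the listed names, 3 matched by synonym (Sil1, Grp170 and Hsp110) and the others by symbol. Genes named are the 5 chaperones, up to 4 examples per list (highest promoter signal, first unbound by alphabet), genes sharing a chaperone's peak and the 2 genes most like each chaperone. Genes sharing the peak of a listed gene, the other genes with no promoter peak in each list and a few genes sharing a motif were named after their values were seen. The 5 genes and the lists were chosen with earlier results of these data known, and no test was run, since there was 1 group. Values are given as mean ± SD over replicates. Alternatives changed distances, list stringency, overlap, the ranking population and the replicates used. The procedures were tested on simulated data. Python 3.11.15, NumPy 2.4.6, pandas 2.3.3, SciPy 1.17.1 and Matplotlib 3.10.9 were used.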

Additional observations from a re-analysis of the deposited data

How the results depend on the processing

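Over 13 results, 85 alternative values were computed. Of these, 79 stayed within the replicate SD of the value reported or, for counts, within 1.5 times it. Leaving out 1 of 3 replicates cannot move a mean rank or position by a whole SD. Those alternatives were therefore bound to be among the 79. That SD is wide for Calr, Hsc70-3 and Gp93. The 4 genes with a thresholded peak were the same 4 under each alternative tried. The ranking population moved all 4 shares of peaks above a gene's strongest peak, because the lists differ in length. Among shared peaks, a replicate peak can also count more than once. Among all peaks of each replicate list, among replicate peaks at a q-value up to 0.05 and among shared peaks the mean was 0.0530%, 0.132% and 0.172% for Calr, 0.180%, 0.452% and 0.612% for Hsc70-3, 1.44%, 3.63% and 4.97% for Gp93, and 4.88%, 10.9% and 18.6% for Cnx99A. The HSP70 and HSP90 relatives outside the ER with a promoter peak numbered 5, and 3 with peaks above the median signal. They also numbered 3 when thresholded peaks had to overlap the strongest peaks of every replicate but 1. That is a stricter filter, and it left 5521 to 6153 thresholded peaks, depending on the replicate left out. The other lists also fell. With peaks above the median signal the cofactors went from 7 to 6 of 10 and the calnexin and calreticulin cycle from 6 to 4 of 7. With replicate 1, 2 or 3 left out, the cofactors numbered 6, 6 and 7, and the cycle genes 5, 6 and 5. With each replicate left out, the share above the strongest peak was 0.129 to 0.251% for Calr, 0.467 to 0.904% for Hsc70-3, 3.73 to 7.30% for Gp93 and 15.5 to 21.5% for Cnx99A. GACGTG was at 4 of 13 summits within 25 bp and 6 within 100 bp, where 1.22% and 4.39% of all thresholded summits held it. With the summits of replicates 1, 2 and 3 it was at 6 of 13, 5 of 12 and 7 of 13. The share over all replicate summits is not given, and the 2.39% of thresholded summits does not apply to these counts. The set of summits changed as well. Gp93 peak 2 held the element in replicates 1 and 3, Hsc70-3 peak 1 lacked it in replicate 2, and Cnx99A peak 3 lacked it in replicate 1. A match of replicate peaks by an overlap of at least 50% gave no value for Gp93, which had no such match in all 3 lists. No paired analysis was possible because all samples belong to 1 group. With 3 lists, a scale of signal that is not stated and read depth unknown, small differences between peaks cannot be resolved.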
